A study of Mus musculus with 27 samples.

Results

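The genes described are the nuclear genes for subunits of respiratory chain complexes I, III and V in E8.5 mouse embryos. They are the rows of the deposited table whose symbol starts with Ndufa, Ndufb, Ndufc, Ndufs, Ndufv, Uqcr or Atp5, without the Ndufaf assembly factors. The rule took 63 of 24065 genes, of which 38 are named for complex I, 8 for complex III and 17 for complex V. It goes by name, so it also took 4 genes that are not subunits of these complexes. They are Ndufa4, which is now placed in complex IV, its paralog Ndufa4l2, and Atp5s and Atp5sl.

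RNA-Seq was done on whole embryos of the C57BL/6J strain, 3 WT and 3 Dnmt3b-/-, collected at E8.5 as littermates, with 1 library for each embryo. The Dnmt3b-/- embryos carry a catalytically inactive allele of the DNA methyltransferase gene Dnmt3b in all tissues, made by recombining the 2lox allele with an ACTB-Cre deleter line and mating heterozygous carriers. The question of the comparison was how transcripts differ between embryos without and with active DNMT3B. Libraries held 41489332 to 58470286 counts on genes.

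The respiratory chain sits in the inner mitochondrial membrane. Complex I oxidises NADH and passes the electrons to ubiquinone, complex III passes them on to cytochrome c, and both pump protons. Complex V, the ATP synthase, lets the protons flow back through a rotor and makes ATP. Most subunits are encoded in the nucleus, and the few encoded by mitochondrial DNA were not analysed here. At E8.5 the heart has begun to beat, and heart muscle is among the tissues that come to depend most on respiration.

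Most of the subunit genes that changed had lower transcript levels in Dnmt3b-/- embryos. Of the 63 members, 62 passed the filter of a mean of 10 counts over the 6 embryos. Of these 62, 33 fell, 7 rose and 22 were not called at an adjusted p below 0.05. Among all 15114 tested genes 18.1% were called lower and 17.6% higher, against 53.2% and 11.3% of the members, and 35.7% were called in either direction. Log2 fold changes, taken as Dnmt3b-/- relative to WT, had a median of -0.34 over the members and -0.03 over all tested genes. Of the members that fell, 6 did so more than 2-fold, and of those that rose, 1 did, where 3.78% and 2.12% of all tested genes passed the same limits, 5.9% in all. All p-values come from the quasi-likelihood test of edgeR, adjusted by the Benjamini-Hochberg method over all tested genes.

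Decreases outnumbered increases in each of the 3 complexes. In complex V 11 of 17 tested genes fell and 3 rose, with a median of -0.69. In complex III 5 of 8 fell and 1 rose, with a median of -0.50. In complex I 17 of 37 fell and 3 rose, with a median of -0.23. When trends on GC content and length were removed, as described further on, 14 genes of complex I were lower and 4 higher. In that fit 10.6% of all tested genes were lower and 12.5% higher, and the median of complex I was -0.03. These medians were described and not tested against each other. Embryos of the genotypes did not overlap for 47 members, of which 39 were lower and 8 higher in Dnmt3b-/-. Of all tested genes 26.5% were lower without overlap, 25.3% higher and 51.8% either. All 33 members called lower and all 7 called higher were among the 47, so for a called gene this adds no further support.

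**Figure D1:**
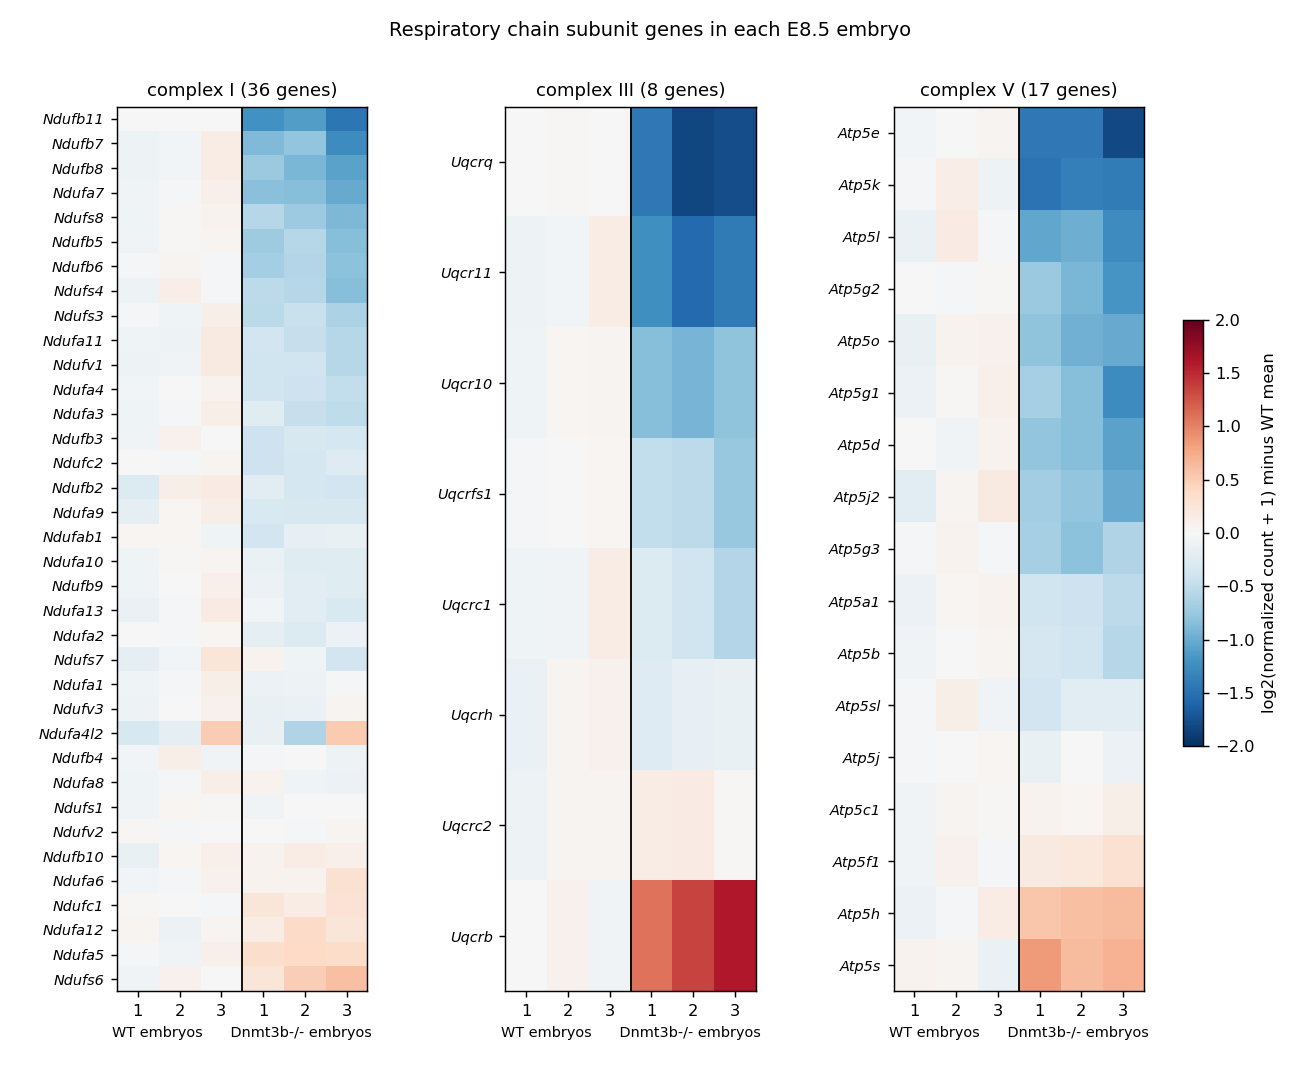
Each row is a tested member (1 is not drawn) and each column an embryo, and the colour gives log2(normalized count + 1) minus the WT mean. WT embryos lie close together except for Ndufa4l2, while the Dnmt3b-/- columns are blue for most genes of complexes III and V and red for Uqcrb, Atp5h and Atp5s.

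The sum over all members, in which abundant genes weigh most, was also lower in Dnmt3b-/- embryos. Normalized counts, which are counts scaled by TMM to a library of mean size, summed to 329788 ± 16137 (SD, n = 3) in WT and 282065 ± 4832 in Dnmt3b-/- embryos. The Dnmt3b-/- sum was 85.5% of the WT sum over all members, 84.1% in complex I and 79.6% in complex V. In complex III it was 117.6%, with Uqcrb higher and most other genes of the complex lower. The median log2 difference of the members from the WT mean was -0.07, 0.01 and 0.06 in WT embryos 1, 2 and 3. It was -0.32, -0.35 and -0.37 in the Dnmt3b-/- embryos, so that all 3 mutant embryos lay below the WT range.

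Whole embryos were measured, so fewer cells of a type and less RNA per cell cannot be told apart. The targeted gene itself was at 9197, 12195 and 7120 raw counts in WT and 4068, 3904 and 4196 in Dnmt3b-/- embryos (log2 fold change -1.04 ± 0.27, SE, adjusted p = 0.0169). Its count includes exons outside the deleted part. Without WT embryo 2 its log2 fold change was -0.61 (adjusted p = 0.0026), and with any Dnmt3b-/- embryo left out it was not called (adjusted p from 0.0555 to 0.0613). Markers of the embryo proper, such as Sox2, Meox1 and Twist1, were present in all libraries, and of 8 trophoblast and decidua markers Prl3d1, Prl2c2, Tpbpa and Prl8a2 were at or under 3 counts in all. Of the others Plac1 had 170.4, 377 and 248 normalized counts in WT and 744, 187 and 215 in Dnmt3b-/- embryos, Hand1 and Dcn were also detected in every library, and Gcm1 was under the filter. WT embryo 2 stood apart by its yolk sac endoderm markers, whose 9 genes summed to 213494.8 normalized counts. The sum was 66651.6 and 26925.3 in WT embryos 1 and 3, and 16369.8 to 50591.7 in the Dnmt3b-/- embryos. With this embryo left out, 33 members still were lower and 6 higher.

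Complex I was read by its modules, from the site where NADH is oxidised to the membrane arm. The N module oxidises NADH, the Q module reduces ubiquinone, and the P module pumps protons. Of the tested genes, 2 of 8 fell and 2 rose in the N module, 5 of 8 fell and 1 rose in the Q module, and 9 of 19 fell and none rose in the P module. Among the 28 tested accessory subunits 12 fell and 3 rose. Beside these counts, the shares over all tested genes were 18.1% lower and 17.6% higher.

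The nuclear core subunits of complex I differed among themselves. Ndufs8, an iron-sulfur subunit, had the largest decrease of those described. It had 1754, 1882 and 1951 normalized counts in WT and 1248, 1129 and 996 in Dnmt3b-/- embryos, without overlap, and a log2 fold change of -0.73 ± 0.11 (SE, adjusted p = 0.00201). Ndufs3, a core subunit of the ubiquinone-binding module, was at 58.0 ± 4.11 FPKM in WT and 39.9 ± 2.69 FPKM in Dnmt3b-/- embryos (SD, n = 3), with a log2 fold change of -0.54 ± 0.09 (SE, adjusted p = 0.00316). FPKM stands for fragments per kilobase of exon, scaled to the library size, and allows levels to be compared between genes. Ndufv1, which binds FMN where NADH gives up its electrons, fell from 40.3 ± 4.53 to 29.3 ± 2.07 FPKM, a log2 fold change of -0.46 ± 0.10 (SE, adjusted p = 0.00935).

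Ndufs1, Ndufv2 and Ndufs7 are core subunits that were not called. Ndufs1, the largest subunit, was at 47.3 ± 2.08 FPKM in WT and 46.2 ± 1.09 FPKM in Dnmt3b-/- embryos, and the approximate 95% interval of its log2 fold change ran from -0.16 to 0.10. For Ndufv2, an iron-sulfur subunit of the NADH dehydrogenase module, the levels were 71.6 ± 1.58 and 72.0 ± 2.16 FPKM, with an interval from -0.11 to 0.13. Ndufs7, which carries the terminal iron-sulfur cluster, varied more between embryos, at 30.1 ± 4.57 and 27.5 ± 4.19 FPKM, with an interval from -0.43 to 0.16. These intervals exclude a 2-fold change of each of the 3 genes.

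The largest decreases of complex I were in accessory subunits, and mainly in those of the membrane arm. Ndufb11 (chromosome X, 20615326 to 20617619 in GRCm38.p6, as for all positions given), an X-linked membrane subunit, had 1942, 1949 and 1966 normalized counts in WT and 842, 902 and 717 in Dnmt3b-/- embryos. All mutant embryos lay well below the lowest WT embryo, and the log2 fold change was -1.25 ± 0.11 (SE, adjusted p = 0.00047). It shares 29% of its exonic length with Rbm10 on the opposite strand, and the strand setting of the counting was not stated. Ndufb7 (chromosome 8, 83566758 to 83571623), an accessory subunit facing the intermembrane space, had 1490.4, 1531 and 1766 counts in WT and 865, 917 and 665 in Dnmt3b-/- embryos, and its log2 fold change was -0.97 ± 0.14 (SE, adjusted p = 0.00181). Ndufb8 (chromosome 19, 44548571 to 44555442), another membrane arm subunit, had 4768, 4909.9 and 5651 against 3031, 2710.1 and 2433, a log2 fold change of -0.91 ± 0.10 (SE, adjusted p = 0.000805). In the peripheral arm Ndufa7 (chromosome 17, 33824572 to 33838316) had 2902, 2999 and 3271 against 1718, 1689 and 1519, a log2 fold change of -0.90 ± 0.09 (SE, adjusted p = 0.000602). The genotypes did not overlap for any of these 4 genes.

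Ndufb5, Ndufb6, Ndufs4, Ndufa11, Ndufa3, Ndufb3, Ndufc2 and Ndufa9 completed the accessory subunits that fell, with log2 fold changes from -0.71 for Ndufb5 to -0.32 for Ndufa9. The calls of Ndufa3, Ndufa9, Ndufb3 and Ndufc2 were lost in 2 or 3 of 6 fits that left out an embryo. Ndufs4, whose human counterpart is mutated in Leigh syndrome, fell from 38.9 ± 3.21 to 24.9 ± 2.97 FPKM (log2 fold change -0.64 ± 0.11, SE, adjusted p = 0.00334). The genes of complex I that were not called, beside these 3 core subunits, were Ndufa1, Ndufa2, Ndufa6, Ndufa8, Ndufa10, Ndufa13, Ndufab1, Ndufb2, Ndufb4, Ndufb9, Ndufb10, Ndufc1, Ndufv3 and Ndufa4l2. Their log2 fold changes lay between -0.33 for Ndufb2 and 0.22 for Ndufc1. Ndufa13 shares 29.6% of its exonic length with Tssk6 on the opposite strand. Ndufb9, the accessory subunit with the highest mean FPKM in WT embryos, had 3235, 3429.8 and 3683 normalized counts in WT and 3165, 2958 and 2897 in Dnmt3b-/- embryos. The genotypes did not overlap for it, but its log2 fold change of -0.20 ± 0.08 did not pass the test (adjusted p = 0.0767).

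Ndufs6, Ndufa5 and Ndufa12 rose in Dnmt3b-/- embryos. Ndufs6 (chromosome 13, 73319876 to 73328482), a zinc-binding subunit, had 2136, 2363 and 2214 normalized counts in WT and 2634, 3149 and 3404 in Dnmt3b-/- embryos, and its log2 fold change was 0.45 ± 0.11 (SE, adjusted p = 0.0116). Without Dnmt3b-/- embryo 2 this call was lost (adjusted p = 0.0529). Ndufa5 (chromosome 6, 24518662 to 24527690) had 2201, 2148 and 2414 against 2859, 2979.7 and 2889, a log2 fold change of 0.37 ± 0.08 (SE, adjusted p = 0.00786). Ndufa12 (chromosome 10, 94199035 to 94221440) had 3449, 3062 and 3457 against 3674, 4349 and 3922, a log2 fold change of 0.26 ± 0.09 (SE, adjusted p = 0.044), and was called in 1 of 6 fits that left out an embryo. All 3 genes, like each of the 7 members called higher, were higher in every Dnmt3b-/- embryo than in any WT embryo.

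Ndufs5, an accessory subunit facing the intermembrane space, was listed at 0 counts in all 6 libraries. A count of 0 allows up to 3 counts, or 2.38 to 3.5 normalized counts in a library. The closest other locus in the genome matches its transcript at 99.6% identity. HTSeq by default leaves out reads that align to more than 1 locus. Ndufb4, whose closest copy is also at 99.6%, had a mean of 2037 normalized counts in WT embryos. The reason for the 0 counts of Ndufs5 was not tested, and no value of this gene was used.

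Ndufa4 and its paralog Ndufa4l2 were at very different levels. Per exonic length Ndufa4 had the highest level of all genes named for complex I, at 248 ± 10.8 FPKM in WT and 183 ± 5.9 FPKM in Dnmt3b-/- embryos. It had 5661, 5888 and 6174 normalized counts in WT and 4481, 4428 and 4215 in Dnmt3b-/- embryos. It was lower in each mutant embryo, with a log2 fold change of -0.43 ± 0.07 (SE, adjusted p = 0.00211). Ndufa4l2, which hypoxia induces in many cells, was at 2.52 ± 0.826 FPKM in WT and 2.44 ± 0.984 FPKM in Dnmt3b-/- embryos, with 109, 118 and 192 and 121, 88.7 and 195 normalized counts. Its embryos overlapped, and the interval of its log2 fold change was wide, from -0.74 to 0.65.

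In complex III the small subunits moved furthest and in both directions. Uqcrq (chromosome 11, 53427922 to 53430831), a small subunit beside the cytochrome b subunit, had the largest decrease of all members. It had 919, 939 and 918 normalized counts in WT and 345, 261 and 271 in Dnmt3b-/- embryos, 3.16-fold lower with a log2 fold change of -1.66 ± 0.14 (SE, adjusted p = 0.000431). Uqcr11 (chromosome 10, 80402997 to 80406821) had 2309, 2382 and 2743 against 1055, 840.3 and 927, a log2 fold change of -1.40 ± 0.12 (SE, adjusted p = 0.000431). Uqcr10 (chromosome 11, 4701968 to 4704344) had 2097, 2308 and 2314 against 1240.5, 1168 and 1275, a log2 fold change of -0.87 ± 0.09 (SE, adjusted p = 0.000667), and shares 38.6% of its exonic length with a gene on the opposite strand. The mutant embryos lay below all WT embryos for each of the 3 genes.

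Uqcrb (chromosome 13, 66900576 to 66905350), another small subunit, showed the only increase above 2-fold among the members. It had 8160.4, 8706 and 7881 normalized counts in WT and 17578, 21034 and 25012 in Dnmt3b-/- embryos. It was 2.57-fold higher, with a log2 fold change of 1.36 ± 0.12 (SE, adjusted p = 0.000491), and the lowest mutant embryo was more than 2 times the highest WT embryo. Per exonic length it was the most abundant gene of complex III, at 314 ± 16.0 FPKM in WT and 806 ± 141 FPKM in Dnmt3b-/- embryos. Its transcript has 3 other loci of at least 95% identity over 50% or more of its length, the closest at 98.3%. Reads could thus be split between them or left out of the counts. Uqcrh, the hinge protein at cytochrome c1, was the next in level and had 5386, 6121 and 6233 against 4952, 5253 and 5317 normalized counts. It did not pass the test (log2 fold change -0.19 ± 0.08, adjusted p = 0.0866), although its genotypes did not overlap.

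Among the members, the redox and core subunits Uqcrfs1, Uqcrc1 and Uqcrc2 had smaller changes than Uqcrq, Uqcr11, Uqcr10 and Uqcrb. The redox subunit Cyc1, which the rule does not take, is described further on and had a larger change than Uqcr10. Uqcrfs1 (chromosome 13, 30540312 to 30545316), the Rieske iron-sulfur protein, had 3164, 3201 and 3324 normalized counts in WT and 2299, 2246 and 1912 in Dnmt3b-/- embryos, and its log2 fold change was -0.59 ± 0.09 (SE, adjusted p = 0.00206). Of the pair of large core proteins, Uqcrc1 fell from 90.7 ± 8.13 to 68.0 ± 7.5 FPKM (log2 fold change -0.42 ± 0.10, SE, adjusted p = 0.0139), a call that was lost without Dnmt3b-/- embryo 2 (adjusted p = 0.0538). Uqcrc2 was at 98.8 ± 6.21 and 107 ± 5.7 FPKM and was not called, with an interval of its log2 fold change from -0.04 to 0.26. It shares 26.7% of its exonic length with Pdzd9 on the opposite strand. The difference between the changes of both core proteins was not tested.

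**Figure D2:**
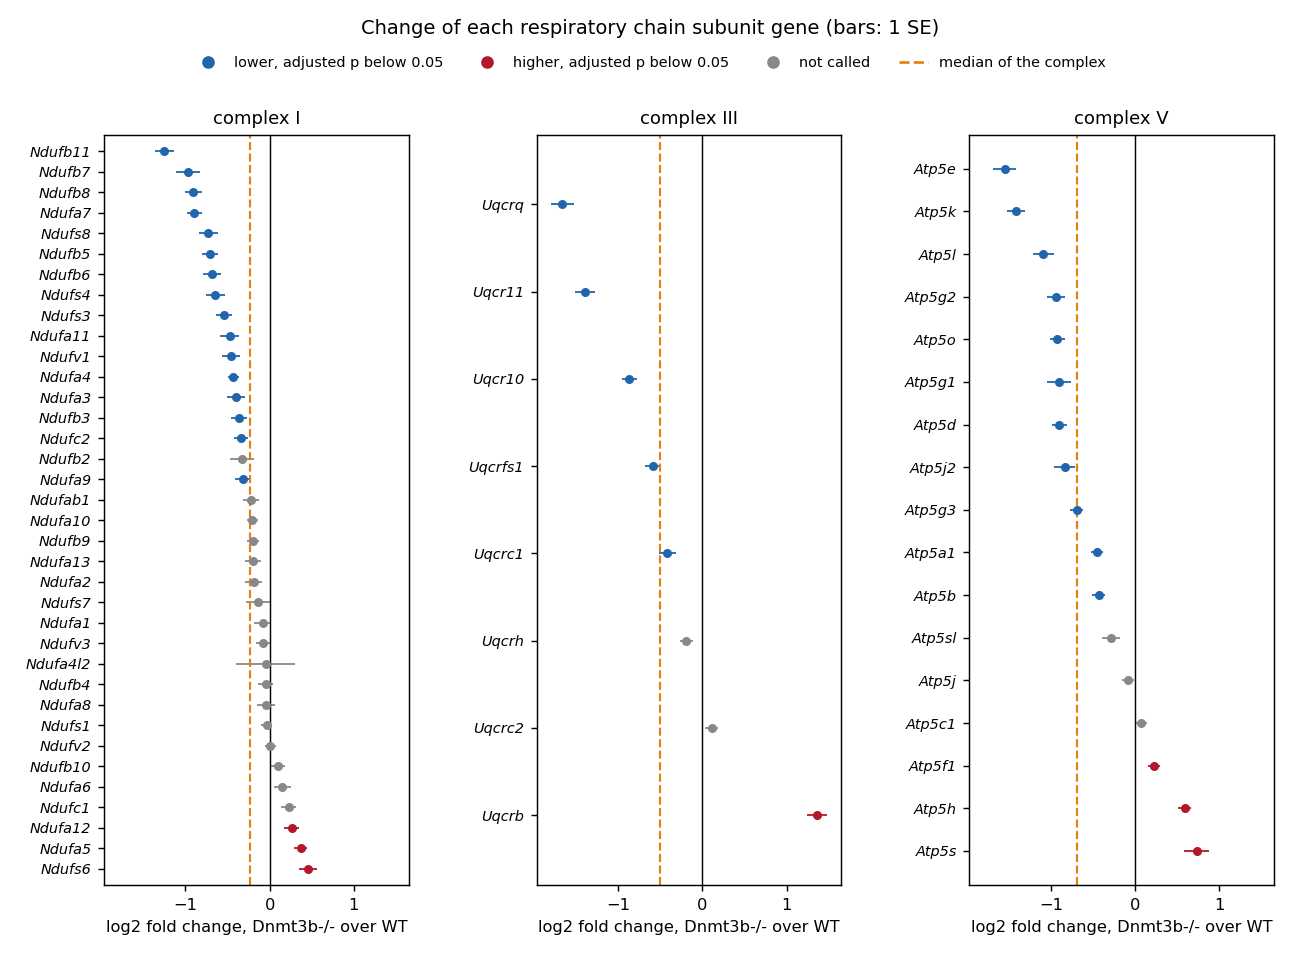
Points give log2 fold changes, Dnmt3b-/- relative to WT, for each tested member (1 is not drawn), with bars of 1 SE, and the dashed line the median of the complex. Complex V has the lowest median, -0.69, and Uqcrb lies alone at the right, at 1.36.

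In complex V all 6 measured genes of the membrane part Fo fell, where 18.1% of all tested genes were lower and 17.6% higher. The 3 genes for subunit c of the rotor ring encode the same mature protein, and all of them fell. Atp5g2 (chromosome 15, 102662868 to 102671047) had 7066, 6816 and 7142 normalized counts in WT and 4176, 3719.7 and 3099.9 in Dnmt3b-/- embryos, and its log2 fold change was -0.94 ± 0.11 (SE, adjusted p = 0.000815). Atp5g1 had 4375, 4795 and 5058 against 3000.1, 2625 and 1986, a log2 fold change of -0.90 ± 0.14 (SE, adjusted p = 0.00214). Atp5g3 had 4638, 5009 and 4632 against 3006, 2705 and 3134, a log2 fold change of -0.69 ± 0.08 (SE, adjusted p = 0.000804). The sum of the 3 genes was 375.6 to 392.3 FPKM in WT embryos and 179.6 to 233.9 FPKM in Dnmt3b-/- embryos. Atp5g2 gave 57.6% to 60.6% of this sum in WT and 55.6% to 57.7% in Dnmt3b-/- embryos. Reads of Atp5g2 and Atp5g1 could be split with other loci or left out of the counts. Both transcripts have copies elsewhere in the genome, of 100% and 99.5% identity.

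The subunits e and g, which hold ATP synthase dimers together, fell by more than 2-fold. Atp5k (chromosome 5, 108433246 to 108434399), for subunit e, had 1863, 2084 and 1782 normalized counts in WT and 682, 741 and 725 in Dnmt3b-/- embryos, 2.67-fold lower with a log2 fold change of -1.41 ± 0.10 (SE, adjusted p = 0.000362). Atp5l (chromosome 9, 44913248 to 44920742), for subunit g, had 1981, 2433 and 2128 against 1062, 1109 and 908, 2.12-fold lower with a log2 fold change of -1.09 ± 0.12 (SE, adjusted p = 0.000778). Both have near-identical copies in the genome, 10 in the case of Atp5l. Atp5j2, for the membrane subunit f, fell with a log2 fold change of -0.83 ± 0.12 (SE, adjusted p = 0.00177).

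The catalytic head and central stalk, together called F1, had 4 of 5 genes lower, where 18.1% of all tested genes were. Atp5b, for the catalytic subunit beta, was the most abundant of all 63 members. It had 61159, 64594 and 66584 normalized counts in WT and 50885, 48381 and 43179 in Dnmt3b-/- embryos, and its log2 fold change was -0.43 ± 0.08 (SE, adjusted p = 0.00421). Atp5a1, for subunit alpha, had 40527, 44989 and 46130.1 against 33091, 32861 and 30339, a log2 fold change of -0.45 ± 0.08 (SE, adjusted p = 0.00292). For these highly expressed genes a modest change was larger than the spread between embryos. Atp5e (chromosome 2, 174461075 to 174464101), for the small subunit epsilon, had 1086, 1123 and 1176 against 416, 419 and 323, 2.92-fold lower with a log2 fold change of -1.55 ± 0.13 (SE, adjusted p = 0.00047). Atp5d, for subunit delta, fell from 43.4 ± 2.0 to 23.3 ± 2.3 FPKM (log2 fold change -0.90 ± 0.09, SE, adjusted p = 0.000602). Atp5c1, for the central shaft gamma, was at 134 ± 5.94 and 141 ± 3.35 FPKM and was not called, with an interval of its log2 fold change from -0.06 to 0.20.

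The peripheral stalk, which holds the head still while the rotor turns, was split. Atp5h (chromosome 11, 115415691 to 115419919), for subunit d, had 9304, 9902 and 11163 normalized counts in WT and 14748, 15256 and 15641 in Dnmt3b-/- embryos, and its log2 fold change was 0.59 ± 0.08 (SE, adjusted p = 0.00154). Atp5f1 (chromosome 3, 105942698 to 105959263), for subunit b, had 15199.6, 16814 and 15726 against 18081, 18323 and 19608, a log2 fold change of 0.23 ± 0.07 (SE, adjusted p = 0.0353), and was called in 2 of 6 fits that left out an embryo. Both were higher in each mutant embryo than in any WT embryo. In contrast Atp5o, for the subunit OSCP at the top of the stalk, fell from 221 ± 19.6 to 117 ± 8.81 FPKM (log2 fold change -0.92 ± 0.09, SE, adjusted p = 0.000593). Atp5j, for the coupling factor F6, was at 52.5 ± 1.49 and 49.5 ± 3.07 FPKM and was not called (adjusted p = 0.415). It shares 19.7% of its exonic length with Gabpa on the opposite strand.

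Of the genes named Atp5 that are no subunits, Atp5s rose and Atp5sl was not called. Atp5s (chromosome 12, 69724913 to 69744665), also known as coupling factor B, had 273, 272 and 238 normalized counts in WT and 472, 406 and 422 in Dnmt3b-/- embryos, and its log2 fold change was 0.73 ± 0.15 (SE, adjusted p = 0.00709). At 2.12 ± 0.162 FPKM in WT embryos it was far below the subunits proper. Atp5sl was at 9.48 ± 0.68 and 7.8 ± 0.5 FPKM (adjusted p = 0.0741).

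**Figure D3:**
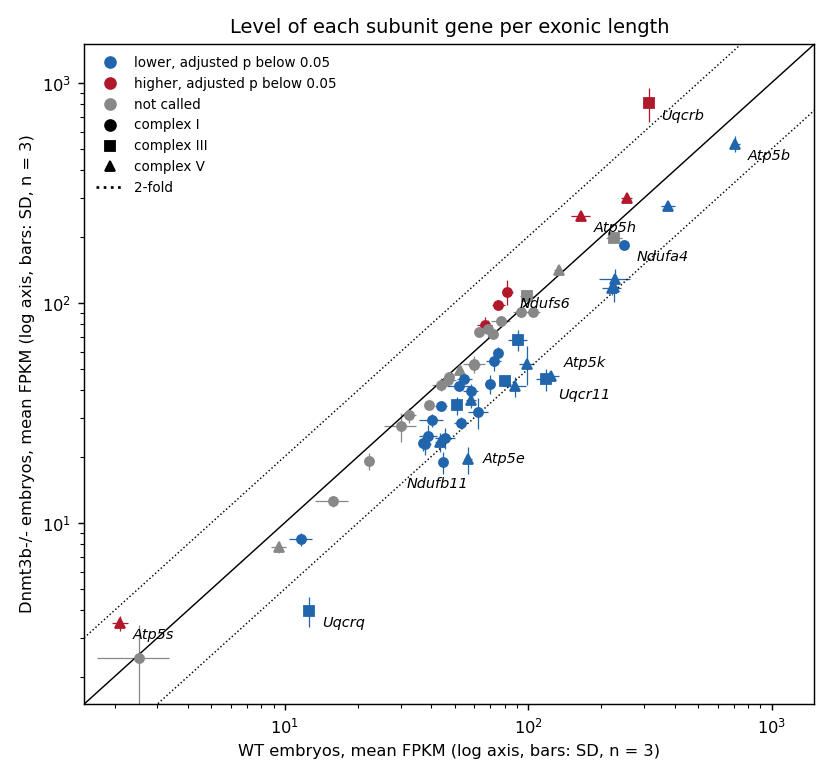
Each point is a tested member at its mean FPKM in WT (horizontal) and Dnmt3b-/- embryos (vertical), on log axes, with bars of the SD over 3 embryos. The genes that fell are spread over a wide range of levels, from Ndufa11 at 11.7 to Atp5b at 711 FPKM in WT embryos.

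Subunit transcripts are short, and the changes of the members moved when trends on length and GC content of the exons were removed. The members had a median exonic length of 1028.5 bp, against 3626.5 bp over all tested genes. Of the 871 tested genes under 1000 bp 29.6% were called lower and 12.3% higher, against 17 and 3 of the 30 members of this length. Of the 32 members of 1000 bp or more, 16 fell and 4 rose, where 18.1% and 17.6% of tested genes of any length did. When smooth trends on GC content and length were removed from each library, 29 members were lower and 7 higher, where 10.6% and 12.5% of all genes tested in this fit were. Of the 33 genes called lower, 26 were shared, and of the 7 called higher, 4.

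The correction brought the median of each complex closer to 0. The median log2 fold change became -0.03 in complex I, -0.30 in complex III and -0.44 in complex V. Uqcrq kept its value, at -1.67, while Uqcr11 went to -0.73, Atp5e to -1.15, Atp5k to -1.06 and Uqcrb to 0.93, each still called. Ndufb7 (-0.32, adjusted p = 0.095), Ndufs8, Ndufv1, Ndufa3, Ndufa11 and Uqcrc1 were among the genes no longer called lower, and Atp5s, Atp5f1 and Ndufa12 were no longer called higher. In their place Ndufs1, Ndufv2 and Ndufab1 were called lower and Atp5j, Ndufa13 and Ndufb10 higher. Whether the trends on GC content and length come from the libraries or from the embryos was not tested.

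**Figure D4:**
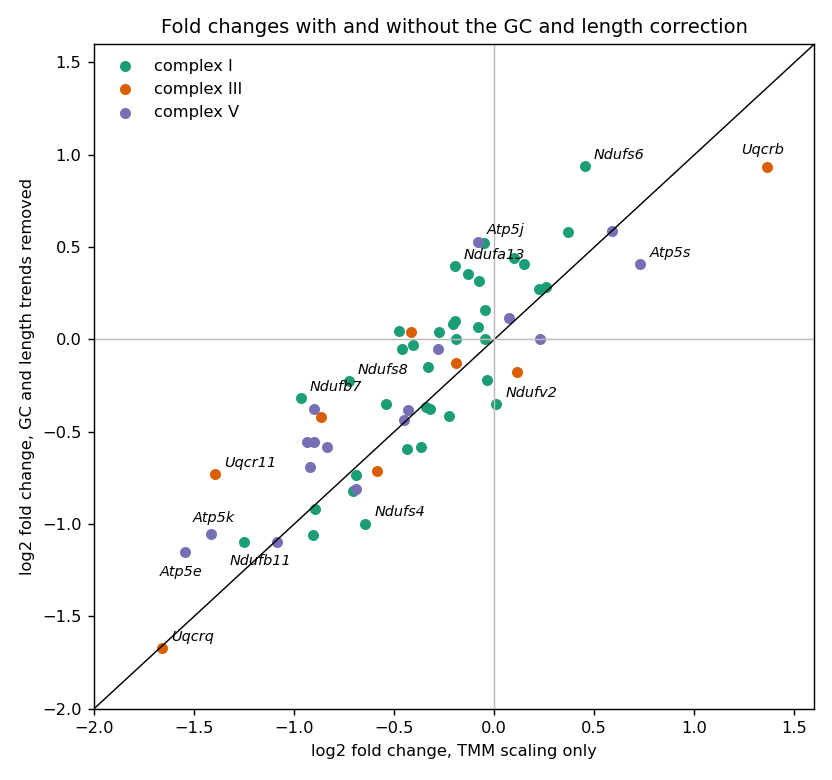
Each point is a tested member, with its log2 fold change under TMM scaling (horizontal) and after removal of GC and length trends (vertical). Points above the diagonal moved up with the correction, as did Uqcr11 and Ndufb7, while Uqcrq stayed on the line at -1.67.

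Of the members, 17 have another locus in the genome that matches at least 50% of the transcript at 95% identity or more. They are Atp5f1, Atp5g1, Atp5g2, Atp5h, Atp5j2, Atp5k, Atp5l, Atp5o, Ndufb3, Ndufb4, Ndufb11, Ndufs3, Ndufs5, Ndufs6, Uqcr11, Uqcrb and Uqcrh. Reads of these 17 genes could be split between loci or left out of the counts. Of the 16 tested among them 10 fell and 4 rose, and of the 46 without such a copy 23 fell and 3 rose. The shares over all tested genes were 18.1% lower and 17.6% higher. Among the 46 the median log2 fold change was -0.30. Uqcrq and Atp5e, which have no such copy, had the first and second largest decrease of all members.

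The promoters of the members were searched for motifs of factors known to drive respiratory genes, in RefSeq windows of GRCm38.p6 from 250 bases before to 50 after the start site, on both strands. A window was found for 54 of the 63 members. The palindromic NRF1 motif was held by 4 of the 54, 7.4% against 2.14% of 11816 tested genes with a window. All 4, Atp5k, Atp5g2, Ndufa11 and Uqcrc1, were among the genes that fell, but 30 of the 54 members with a window fell. Ndufa11 and Uqcrc1 lost the call with the GC and length correction. A link of the motif with the decrease was not tested. Sequences of the 4 genes follow with the motif in capitals, 5′ to 3′ on the strand of the gene. It is the minus strand for Atp5k and Atp5g2 and the plus strand for Ndufa11 and Uqcrc1. The motif starts at base -50, -42, -60 and 31 from the start site, in this order.
Atp5k, chr5:108434400-108434494: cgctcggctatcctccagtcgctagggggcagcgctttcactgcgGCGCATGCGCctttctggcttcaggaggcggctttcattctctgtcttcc
Atp5g2, chr15:102671048-102671134: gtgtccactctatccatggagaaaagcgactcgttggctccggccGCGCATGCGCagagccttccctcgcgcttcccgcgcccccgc
Ndufa11, chr17:56717657-56717756: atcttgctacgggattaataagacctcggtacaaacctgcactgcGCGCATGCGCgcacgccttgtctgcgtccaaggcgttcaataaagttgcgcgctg
Uqcrc1, chr9:108936668-108936697: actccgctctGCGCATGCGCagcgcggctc
In each the motif reads the same on both strands.

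The core of the ETS motif, CCGGAAGT, which GABP binds, was found in 4 of the 54 members, 7.4% against 8.23% of the tested genes. The 4 were Uqcr11 and Ndufs3, which fell, Atp5h, which rose, and Uqcrh, which was not called. Uqcr11 and Atp5h are shown because they hold the same letters and moved in opposite directions. Both genes lie on the minus strand, and in Atp5h the motif stands on the opposite strand, as ACTTCCGG.
Uqcr11, chr10:80406835-80406932: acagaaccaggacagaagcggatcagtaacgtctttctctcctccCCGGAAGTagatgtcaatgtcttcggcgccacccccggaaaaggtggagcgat
Atp5h, chr11:115419920-115420003: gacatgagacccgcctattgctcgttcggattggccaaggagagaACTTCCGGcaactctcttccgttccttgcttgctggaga
The SP motif GGGGCGGGG was held by 10 of the 54, 18.5% against 24.15% of the tested genes.

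The YY1 motif AAGATGGC was held by 11 of the 54 members, 20.4% against 4.76% of the tested genes. Of the 11 genes 5 fell, 2 rose and 4 were not called. In 10 of them it stood on the strand of the gene, and in 9 of these 10 the ATG inside it was an annotated start codon. In these 9 genes the letters are thus also the beginning of the coding sequence, so that a match does not tell a binding site from a start codon. Ndufb8 and Atp5j2, which fell, and Ndufs6, which rose, are shown with the motif in capitals on the minus strand, where all 3 lie.
Ndufb8, chr19:44555393-44555415: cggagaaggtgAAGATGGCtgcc
Atp5j2, chr5:145191500-145191529: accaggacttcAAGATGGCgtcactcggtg
Ndufs6, chr13:73328433-73328460: gggtcaccggcAAGATGGCggcggtgct

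The other respiratory complexes and further mitochondrial gene lists were read beside these genes. For each list the shares over all tested genes to compare with are 18.1% lower and 17.6% higher. Complex II, which passes electrons from succinate to ubiquinone, had 3 of 4 genes lower. They were Sdhd (log2 fold change -0.74), Sdhb (-0.49) and Sdhc (-0.32), and Sdha was not called. Only Sdhd of these 3 was also called with the GC and length correction. Complex IV, the cytochrome c oxidase, had 7 of 15 tested nuclear genes lower and 3 higher, with a median of -0.23. Among the genes called, the largest decreases were in Cox7a2 (-0.68), Cox4i1 (-0.61), Cox6a1 (-0.53) and Cox6b1 (-0.51). Cox4i2 (1.17), Cox6c (1.01) and Cox7a2l (0.38) rose. With the GC and length correction Cox4i1 and Cox6a1 were not called, and the median of complex IV was 0.06.

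The electron carriers around complex III also moved in both directions. Cyc1, for cytochrome c1 of complex III itself, which the rule does not take by its name, had 3029, 3146 and 3314 normalized counts in WT and 1736, 1709 and 1121 in Dnmt3b-/- embryos, and its log2 fold change was -1.06 ± 0.16 (SE, adjusted p = 0.00195). Somatic cytochrome c, Cycs, had 19279, 21195 and 20300.4 against 27529, 30731 and 30601, a log2 fold change of 0.55 ± 0.07 (SE, adjusted p = 0.00139), but was not called with the GC and length correction (0.12). Cyct, the cytochrome c of testis, had 6.3, 5.7 and 4.4 normalized counts in WT and 254, 187 and 488 in Dnmt3b-/- embryos. It had the largest change of all genes listed here, with a log2 fold change of 5.78 ± 0.48 (SE, adjusted p = 0.000414).

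Assembly factors help to build the complexes and are not part of them. Of 14 tested assembly factors of complex I 5 fell and 1 rose, with a median of 0.02. Foxred1 (-0.92), Ndufaf3 (-0.83), Ndufaf5 (-0.79) and Nubpl (-0.58) had the largest decreases, and Ndufaf2 (0.86) rose. With the GC and length correction the median of this list was -0.24, on the other side of 0, and Ndufaf3 (-0.40, adjusted p = 0.253) was not called. Of 10 factors of complexes III and V 2 fell, Uqcc2 (-0.95) and Uqcc1 (-0.51), and 1 rose, with a median of -0.03. The gene that rose, Atpif1, encodes the inhibitor that stops complex V from running backwards, and had 8909, 9948 and 10152 normalized counts in WT and 17968, 17818 and 19824 in Dnmt3b-/- embryos (log2 fold change 0.94 ± 0.08, SE, adjusted p = 0.000431).

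Among 13 nuclear regulators of respiratory genes 4 fell and 4 rose. Esrra, an orphan nuclear receptor that works with PGC-1 coactivators, had the largest change, with 423, 467 and 400.0 normalized counts in WT and 135, 146 and 98.6 in Dnmt3b-/- embryos (log2 fold change -1.76 ± 0.20, SE, adjusted p = 0.000821). Nrf1 (-0.23), the coactivator Pprc1 (-0.35) and the mitochondrial RNA polymerase Polrmt (-0.75) fell as well, where Pprc1 and Polrmt were not called with the GC and length correction. The GABP subunits Gabpa (0.53) and Gabpb1 (0.67) and the mitochondrial transcription factors Tfb1m (0.42) and Tfb2m (0.39) rose, of which Gabpb1 was still called with the correction. Yy1 (0.17), Tfam (0.10), Ppargc1a (0.54), Ppargc1b (-0.24) and Esrrb (0.12) were not called.

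Of the 14 citric acid cycle genes 4 fell and 5 rose, with a median of -0.07. Cs (-0.50), Mdh2 (-0.38) and Suclg1 (-0.37) were among the genes that fell, of which Mdh2 was not called with the GC and length correction (-0.10, adjusted p = 0.4), while Dld (0.77), Sucla2 (0.68), Idh3g (0.65) and Idh3b (0.57) had the largest increases. Of the 19 genes for import into mitochondria 8 fell and 4 rose, with a median of -0.15. The largest decreases were in Timm13 (-1.02), Timm17b (-0.84), Pam16 (-0.66) and Timm50 (-0.56), and the increases were in Tomm6 (0.88), Tomm70a (0.39), Timm8a1 (0.31) and Timm23 (0.30). Of these 8 genes Pam16 (-0.20), Timm50 (-0.03), Tomm70a (0.04) and Timm8a1 (0.04) were not called with the GC and length correction.

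**Figure D5:**
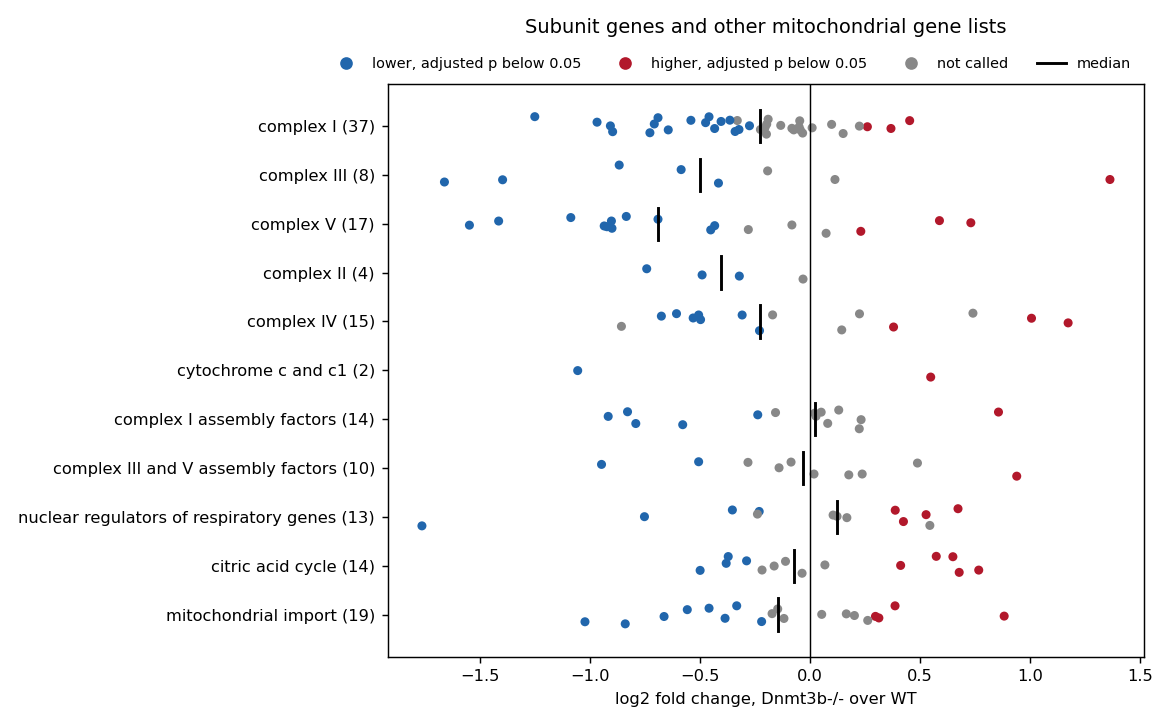
Points are genes of each list at their log2 fold change, Dnmt3b-/- relative to WT, coloured by call, and black lines are medians of lists with more than 2 points. Complexes I, II, III, IV and V have medians below 0, and Cyct, at 5.78, lies off the scale and was left out.

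Markers of embryonic and extraembryonic tissues were read as lists. The shares over all tested genes to set beside each list are 18.1% lower and 17.6% higher. As single genes, 25.3% of all tested genes were higher without overlap of the genotypes. Of 10 markers of the embryo proper 4 rose and 1 fell, with a median of 0.42, and they summed to 13971.8 to 15395.3 normalized counts in WT and 15887.3 to 20274.4 in Dnmt3b-/- embryos, without overlap. Of 10 cardiac muscle markers 2 fell and 1 rose, with a median of -0.49, and they summed to 45248.8 to 80281.6 normalized counts in WT and 46187.5 to 68408.8 in Dnmt3b-/- embryos. Of 9 yolk sac endoderm markers 1 fell, with a median of -1.26 and negative log2 fold changes for all 9, and the ranges of their sum are given above. Of 8 tested primitive erythroid markers none was called, with a median of -0.37 and sums of 12244.8 to 69560.7 in WT and 15755.5 to 44795.9 in Dnmt3b-/- embryos. Hba-a1 was at or under 3 counts in all embryos. Of the 8 trophoblast and decidua markers 3 were tested and none was called, with sums of 808.2 to 1260.8 in WT and 883.5 to 1921.9 in Dnmt3b-/- embryos. The part of these tissues in the changes of the subunit genes was not tested.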

How the data were processed

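Total RNA of single embryos was depleted of rRNA and sequenced as stranded, paired-end libraries. The raw counts per gene were deposited by the authors, who aligned read pairs to mm10 with TopHat2 2.0.12 and used HTSeq 0.6.0 to count them over RefSeq exons, with 1 library per embryo. The strand setting and RefSeq release are not given in the sources used here. The normalized signal deposited by the authors is the count divided by a DESeq2 1.4.5 size factor. It was not used, nor were the log2 fold change and adjusted p-value of the authors' own comparison. The 21 RRBS libraries of the series were not analysed here.

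Differences between 3 WT and 3 Dnmt3b-/- embryos were tested on the counts by quasi-likelihood F-tests (edgeR 4.0.16, R 4.3.3), after TMM normalization and a filter of a mean of at least 10 counts. P-values were adjusted over all tested genes, and the call was an adjusted p below 0.05. Standard errors are the log2 fold change divided by the square root of F. FPKM were computed from the raw counts, RefSeq exon lengths and TMM library sizes, and 99.2% of genes were matched to the RefSeq annotation of GRCm38.p6. Library totals were 41489332 to 58470286 counts, so that 3 counts equal 2.38 to 3.5 normalized counts, a limit that covers counting error only. Littermates are separate embryos, so p-values measure the spread between embryos.

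The members and lists were chosen with earlier results of these data known. Values in each embryo are given for the most abundant and most changed members of each complex, the subunit c genes and the Ndufa4 pair, and other core subunits by their level. Of the other lists up to 4 genes in each direction were named, and all regulators. Some genes that the counts include are not reported here by name. Near-identical copies were searched with BLAST 2.17.0. Alternatives were other filters, DESeq2 size factors, total counts, DESeq2 1.42.0, limma 3.58.1 with a pseudocount of 1, a replicate block, splines of 5 degrees of freedom on GC content and length, each embryo left out, and annotated subunits only. Leaving out members with near-identical copies was added after seeing the data. The fits were tested on simulated data.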

Additional observations from a re-analysis of the deposited data

How the results depend on the processing

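The counts of 33 lower and 7 higher members stayed within 1.5 times under the other filters, scalings, tools and the restriction to annotated subunits. The ranges were 29 to 38 lower and 5 to 8 higher. With an embryo left out, 28 to 33 members were lower, 4 to 7 higher and 6 to 9 changed over 2-fold, and 27 of the lower and 4 of the higher genes were called in all 6 of these fits. The lowest number of higher members, 4, came without Dnmt3b-/- embryo 2. The medians with an embryo left out were -0.41 to -0.32 over all members, -0.26 to -0.21 in complex I, -0.55 to -0.41 in complex III and -0.72 to -0.63 in complex V. Without members that have a near-identical copy 3 were higher, 2 changed over 2-fold (in place of 7), and the median of complex V was -0.43. With annotated subunits only the median of complex V was -0.84. With total counts the medians were -0.41 over all members and -0.30 in complex I, while the median of all tested genes went to -0.11. With the GC and length correction the medians were -0.20 over all members, -0.033 in complex I, -0.30 in complex III and -0.44 in complex V, and Dnmt3b itself was at -0.83 (adjusted p = 0.0637). With an embryo left out, Dnmt3b was at -1.25 to -0.61, with adjusted p from 0.0026 to 0.0613. The cause of these shifts was not tested.

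The labels do not say whether the replicate numbers pair the embryos. Deviations of same-numbered embryos from their group means correlated at -0.049, -0.147 and -0.013. With 3 embryos a group these values cannot tell whether same-numbered embryos share a litter. With the replicate block 31 members were lower and 5 higher, and no member changed direction.

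Single genes turned direction mainly with the GC and length correction, where log2 fold changes became 0.53 for Atp5j, 0.52 for Ndufa4l2, 0.40 for Ndufa13, 0.36 for Ndufs7, 0.32 for Ndufv3, 0.16 for Ndufa8, 0.10 for Ndufb9, 0.084 for Ndufa10, 0.069 for Ndufa1, 0.043 for Ndufa11, 0.041 for Uqcrc1, 0.002 for Ndufa2, 0.001 for Ndufb4, -0.35 for Ndufv2 and -0.18 for Uqcrc2. With total counts Atp5c1 was at -0.004 and Ndufv2 at -0.068, and without a filter Ndufv2 was at -0.002. With an embryo left out, Ndufa4l2 ranged from -0.394 to 0.251, Ndufa8 from -0.088 to 0.023, Ndufb4 from -0.079 to 0.012 and Ndufv2 from -0.008 to 0.029. None of these genes was called under TMM scaling except Ndufa11 and Uqcrc1. The change of Ndufb2 (-0.330, SE 0.145) was not called with 3 embryos a group, while the smaller change of Atp5f1 (0.231, SE 0.071) was. A gene that was not called may thus still differ, by as much as its own interval allows. This interval was -0.61 to -0.05 for Ndufb2 and -0.11 to 0.13 for Ndufv2.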
